A study of Mus musculus with 12 samples.

Results

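The 10 genes described here encode the glucose transporter of the plasma membrane Slc2a1, the hexokinases Hk1 and Hk2, the regulator Pfkfb3, the aldolases Aldoa and Aldoc, the pyruvate kinase Pkm, the lactate dehydrogenase subunits Ldha and Ldhb, and Acod1, the enzyme that makes itaconate. They were taken by symbol from both deposited tables of estimated counts, one for microglia and one for astrocytes, and all 10 were present among 40853 symbols. The study asked how sorted glial cells of mice deficient in Kpna4, which encodes importin α4, a nuclear import receptor, respond to an inflammatory stimulus. Microglia and astrocytes were isolated from whole brain by fluorescence-activated cell sorting, and full-length cDNA made from their RNA was sequenced. There were 4 groups of 3 libraries each. Each cell type came from wild type mice (WT) and from Kpna4 knockout mice (KO). Every mouse was 8 to 9 weeks old and had been injected intraperitoneally with lipopolysaccharide (LPS, a bacterial cell wall component) at 1 mg/kg, 20 h before dissection. WT and KO mice therefore both carry the LPS exposure, and mice without LPS were not analysed here. By the animal numbers in the labels, 6 mice (3 of each genotype) each gave 1 microglia and 1 astrocyte library, so the replicates are separate animals.

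Glycolysis turns glucose into pyruvate in the cytosol. Glucose enters through transporters such as Slc2a1 and is trapped as glucose 6-phosphate by a hexokinase; Pfkfb3 makes fructose 2,6-bisphosphate, the activator of the committed step; an aldolase splits the hexose; pyruvate kinase yields pyruvate, and lactate dehydrogenase interconverts pyruvate and lactate. Acod1 decarboxylates cis-aconitate of the citric acid cycle to itaconate and is known as a gene that LPS induces in myeloid cells. Astrocytes are known for Aldoc, a classical astrocyte marker in the brain, and microglia are the resident myeloid cells of the brain.

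A microglia library held 10.3 M to 14.5 M counts and an astrocyte library 10.7 M to 15.6 M. In microglia 8 abundant non-coding RNAs made up 11.8% to 15.4% of the total, and in astrocytes 26.2% to 39.5%. Levels are given as CPM, counts scaled to the total of their library. Each sort matched its label by marker genes: 10 microglia markers summed to 15191 to 19795 CPM in microglia and 216 to 631 CPM in astrocytes, and 10 astrocyte markers summed to 17125 to 22452 CPM in astrocytes and 346 to 736 CPM in microglia. Markers of other cells were present too. The 8 oligodendrocyte markers summed to 803 to 3930 CPM in astrocytes and 260 to 1712 CPM in microglia. The 6 pericyte markers summed to 328 to 470 CPM in astrocytes and 7.27 to 33.2 CPM in microglia. The part of these cells in the levels of the 10 genes was not tested. Kpna4 was at 84.4 ± 14.8 CPM (SD, n = 3) in microglia labelled WT and 69.0 ± 9.41 CPM (SD, n = 3) in microglia labelled KO, and at 49.6 ± 8.81 and 64.4 ± 18.6 CPM (SD, n = 3 each) in astrocytes. Libraries labelled WT and KO overlapped, and neither difference passed edgeR's test (adjusted p 0.778 and 0.999). Which part of the gene was deleted is not stated in the labels, and these counts do not check the genotype labels.

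The stretches of 250 bases before a transcription start are shown for 4 of the genes. These are the genes of both lactate dehydrogenase subunits, the hexokinase that was high in microglia, and Acod1. The sequences are from RefSeq on the build GRCm38.p6 and run 5′ to 3′ in the direction of the gene. Capitals mark the letters ACGTG, the core that hypoxia-inducible factor (HIF) recognises, on either strand, and in Acod1 also TATAAA. Where CACGTG, the E-box, occurs, it holds ACGTG on both strands, and the overlapping matches are marked together. The Ldha stretch lies at chr7:46845554-46845803 (plus strand), that of Ldhb at chr6:142507958-142508207 (minus strand), that of Hk2 at chr6:82774455-82774704 (minus strand) and that of Acod1 at chr14:103046762-103047011 (plus strand).
Ldha: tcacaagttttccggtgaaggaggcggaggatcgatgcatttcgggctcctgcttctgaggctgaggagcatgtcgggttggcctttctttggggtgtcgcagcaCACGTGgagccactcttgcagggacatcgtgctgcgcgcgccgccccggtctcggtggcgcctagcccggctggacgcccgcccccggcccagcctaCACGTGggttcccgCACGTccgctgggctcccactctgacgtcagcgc
Ldhb: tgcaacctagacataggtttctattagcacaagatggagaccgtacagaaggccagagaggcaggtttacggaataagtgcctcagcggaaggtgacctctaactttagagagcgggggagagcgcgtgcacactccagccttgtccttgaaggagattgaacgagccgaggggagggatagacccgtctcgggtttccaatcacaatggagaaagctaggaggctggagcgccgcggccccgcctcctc
Hk2: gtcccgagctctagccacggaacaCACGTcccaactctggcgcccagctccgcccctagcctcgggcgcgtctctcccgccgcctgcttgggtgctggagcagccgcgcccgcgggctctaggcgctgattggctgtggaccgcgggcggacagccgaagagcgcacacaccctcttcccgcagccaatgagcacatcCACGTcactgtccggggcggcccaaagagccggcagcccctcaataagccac
Acod1: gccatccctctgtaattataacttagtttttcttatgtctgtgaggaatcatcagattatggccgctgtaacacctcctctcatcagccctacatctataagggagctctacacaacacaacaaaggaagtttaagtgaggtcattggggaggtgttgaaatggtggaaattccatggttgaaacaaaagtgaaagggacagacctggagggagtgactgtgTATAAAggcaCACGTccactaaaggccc

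The Ldha stretch held 5 matches to ACGTG counted on both strands, 4 of them in 2 E-boxes that begin 145 and 48 bases before the start. Ldha has another listed start, and the window before it (chr7:46846832-46847081) held 0 matches. The Hk2 stretch held 2 matches to ACGTG. The Ldhb stretch held none, but it holds GCGTG, which was not counted. The Acod1 stretch held 1 match that begins 18 bases before the start, and TATAAA that begins 28 bases before it. RefSeq lists more than 1 start for 6 of the 10 genes, 17 windows in all. ACGTG on either strand was in 9 of these 17 windows, from 7 of the 10 genes (Slc2a1, Hk2, Pfkfb3, Aldoa, Pkm, Ldha and Acod1), and in 16.6% of the 32851 windows of this length over all genes. The Aldoa windows at chr7:126799255-126799504 and chr7:126799179-126799428 overlap and hold the same match, counted in both. The 16.6% is a share of windows, so it does not stand beside the 7 genes. TATAAA on either strand was in 12.4% of the 32851 windows. These matches describe the letters only.

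Most of the 10 genes differed between astrocytes and microglia. Aldoc, Slc2a1, Hk1, Ldhb and Aldoa were higher in astrocytes, and Hk2, Pfkfb3, Acod1 and Ldha were higher in microglia. Pyruvate kinase (Pkm) was the 1 gene of the 10 that did not pass the test. In edgeR's fit of all 12 libraries with genotype as a term, 9 of 10 genes were called at an adjusted p under 0.05, against 64.6% of the 17294 genes tested. Acod1, among the 9, passed the filter on low counts through its microglia libraries only. By direction, 5 of 10 were called higher in astrocytes and 4 of 10 higher in microglia, where 36.4% and 28.2% of all genes were. The CPM of the 6 astrocyte libraries and the 6 microglia libraries did not overlap for the same 9 genes, against 46.5% of all genes. The 9 calls held in all 16 alternative analyses. The median log2 fold change of all genes was 0.19 with trimmed-mean (TMM) scaling and -0.09 with library totals alone, a shift smaller than any of the 9 called changes. Fold changes from edgeR use TMM scaling, while CPM use library totals. A fold change can therefore depart from the ratio of the CPM printed beside it. Fewer cells of a type and less RNA per cell cannot be told apart in these bulk libraries. No sequencing batch is named in the labels, and a batch that follows the cell type cannot be told apart from it.

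**Figure D1:**
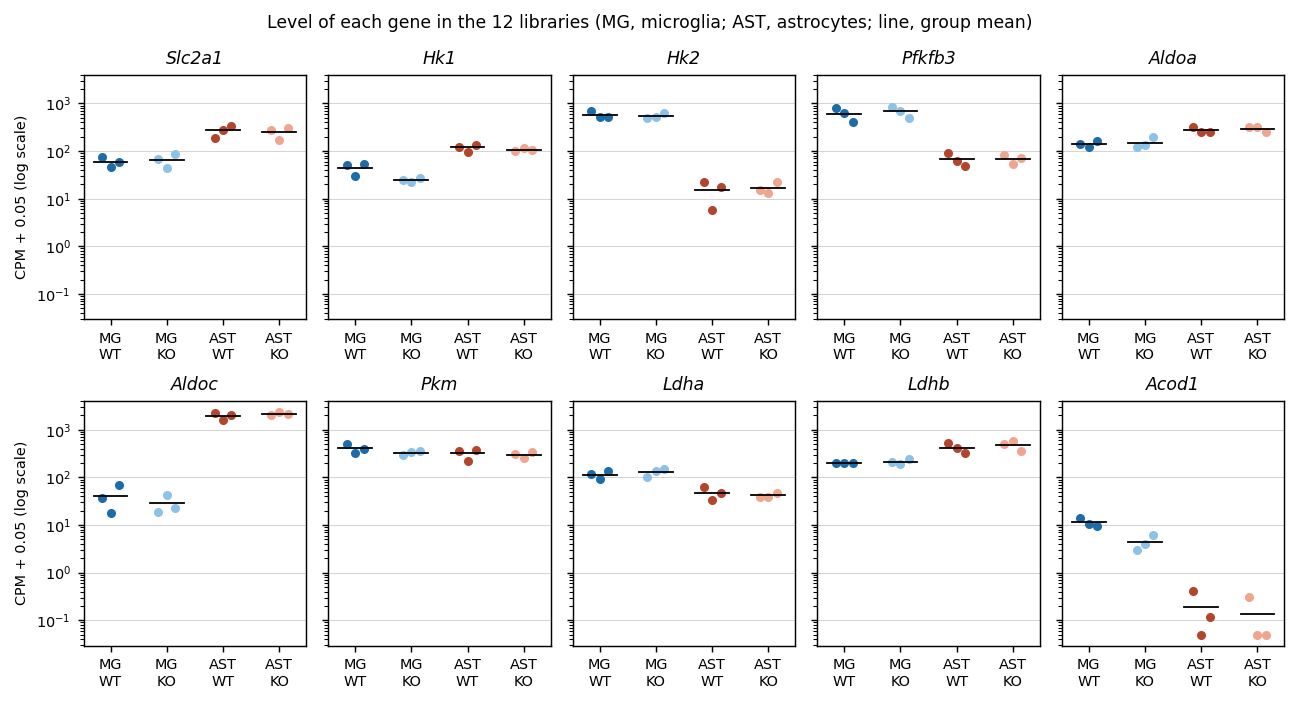
Level of each of the 10 genes in every library, as CPM + 0.05 on a log axis; points are libraries, lines are group means, and MG and AST are microglia and astrocytes. Microglia and astrocyte points are apart in every panel but that of Pkm, and for Acod1 the WT microglia points lie above the KO microglia points.

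Slc2a1 (GLUT1), which carries glucose into the cell, was at 188, 282 and 344 CPM in WT astrocytes and 276, 171 and 313 CPM in KO astrocytes. In microglia it was at 74.9, 45.5 and 58.5 CPM in WT and 68.2, 43.2 and 87.4 CPM in KO. Every astrocyte library was above every microglia library, and the log2 fold change was 2.31 (SE 0.22), or 4.97-fold higher in astrocytes (edgeR adjusted p 3.71e-07).

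Both hexokinases phosphorylate glucose as it enters, and they had opposite patterns. Hk1, the housekeeping isozyme of brain, was at 124, 97.7 and 137 CPM in WT and 99.97, 116 and 106 CPM in KO astrocytes. In microglia Hk1 was at 51.6, 30.4 and 53.2 CPM in WT and 24.4, 22.4 and 26.9 CPM in KO. The astrocyte level was 4.14-fold higher (log2 2.05, SE 0.19, edgeR adjusted p 2.49e-07), and the highest microglia library lay below the lowest astrocyte library. Hk2, the inducible isozyme, was at 691, 527 and 531 CPM in WT and 501, 512 and 635 CPM in KO microglia. In astrocytes Hk2 was at 22.3, 5.69 and 17.8 CPM in WT and 15.3, 12.8 and 22.3 CPM in KO. The lowest astrocyte value was that of WT replicate 2. Hk2 was 29.4-fold higher in microglia (log2 -4.88 as astrocytes over microglia, SE 0.29, edgeR adjusted p 2.35e-09).

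Pfkfb3 sets the rate of the committed step through fructose 2,6-bisphosphate. It was at 806, 629 and 413 CPM in WT and 858, 697 and 497 CPM in KO microglia. Astrocyte libraries had 92.9, 62.9 and 49.3 CPM in WT and 81.5, 53.3 and 72.7 CPM in KO. The groups did not overlap between cell types, and microglia were 7.82-fold higher (log2 -2.97, SE 0.23, edgeR adjusted p 3.71e-08).

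The aldolases split fructose 1,6-bisphosphate, and Aldoc showed the largest difference among the 5 genes that were higher in astrocytes. Aldoc was at 2229, 1574 and 2053 CPM in WT and 2073, 2368 and 2129 CPM in KO astrocytes. In microglia it was at 36.4, 18.1 and 69.0 CPM in WT and 19.1, 43.5 and 22.9 CPM in KO. It was 73.8-fold higher in astrocytes (log2 6.21, SE 0.36, edgeR adjusted p 1.74e-09). Aldoa, the form that is widely expressed, was at 325, 249.96 and 247 CPM in WT astrocytes, 321, 317 and 248 CPM in KO astrocytes, 143, 122.7 and 163 CPM in WT microglia and 123.3, 131 and 194 CPM in KO microglia. The highest microglia library was below the lowest astrocyte library, and the change was 2.38-fold (log2 1.25, SE 0.18, edgeR adjusted p 2.62e-05).

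Pkm, which makes pyruvate, was at 504, 324 and 402 CPM in WT and 298, 344 and 351 CPM in KO microglia. In astrocytes it was at 357, 221 and 376 CPM in WT and 308, 250 and 346 CPM in KO. The cell types overlapped, and the log2 fold change of astrocytes over microglia was 0.01 (SE 0.17, edgeR adjusted p 0.946). It was -0.25 with library totals in place of TMM scaling, so no direction is given. The counts are per gene and do not separate the M1 and M2 splice forms of Pkm.

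Ldha and Ldhb encode the subunits of the lactate dehydrogenase tetramer. Ldha was at 118, 92.2 and 134 CPM in WT and 101, 135 and 147 CPM in KO microglia. In astrocytes Ldha was at 62.3, 33.4 and 45.9 CPM in WT and 39.4, 39.5 and 48.0 CPM in KO. Microglia were 2.23-fold higher (log2 -1.16, SE 0.18, edgeR adjusted p 6.58e-05), with no overlap. Ldhb was at 516, 419 and 330 CPM in WT and 508, 569 and 366 CPM in KO astrocytes. In microglia Ldhb was at 204, 198 and 196 CPM in WT and 210, 193 and 239 CPM in KO. Ldhb was 2.69-fold higher in astrocytes (log2 1.43, SE 0.19, edgeR adjusted p 9.89e-06), again with no overlap. Mouse genomes hold processed copies of some of these genes, Aldoa and Ldha among them, and the estimated counts may divide reads between a gene and its copies. All 120 values of the 10 genes were whole at a tolerance of 0.001. Whole values do not show that no reads went to a copy.

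Acod1 was low in microglia and near 0 in astrocytes. It had 187, 117 and 127 counts (14.1, 10.5 and 9.66 CPM) in WT microglia and 31, 46 and 91 counts (3.004, 3.85 and 6.27 CPM) in KO microglia. In astrocytes it had 5, 0 and 1 counts in WT and 3, 0 and 0 in KO. A count of 0 allows up to 3 counts in a library. Summed over the 6 libraries of each cell type, 599 counts in microglia stood against 9 in astrocytes, a ratio of 70.6 after division by the totals (95% exact interval 37.0 to 155, which covers counting error only). The difference was called by edgeR (adjusted p 3.38e-05). Acod1 passed the low-count filter through its microglia libraries alone, so this call is not support apart from the counts.

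**Figure D2:**
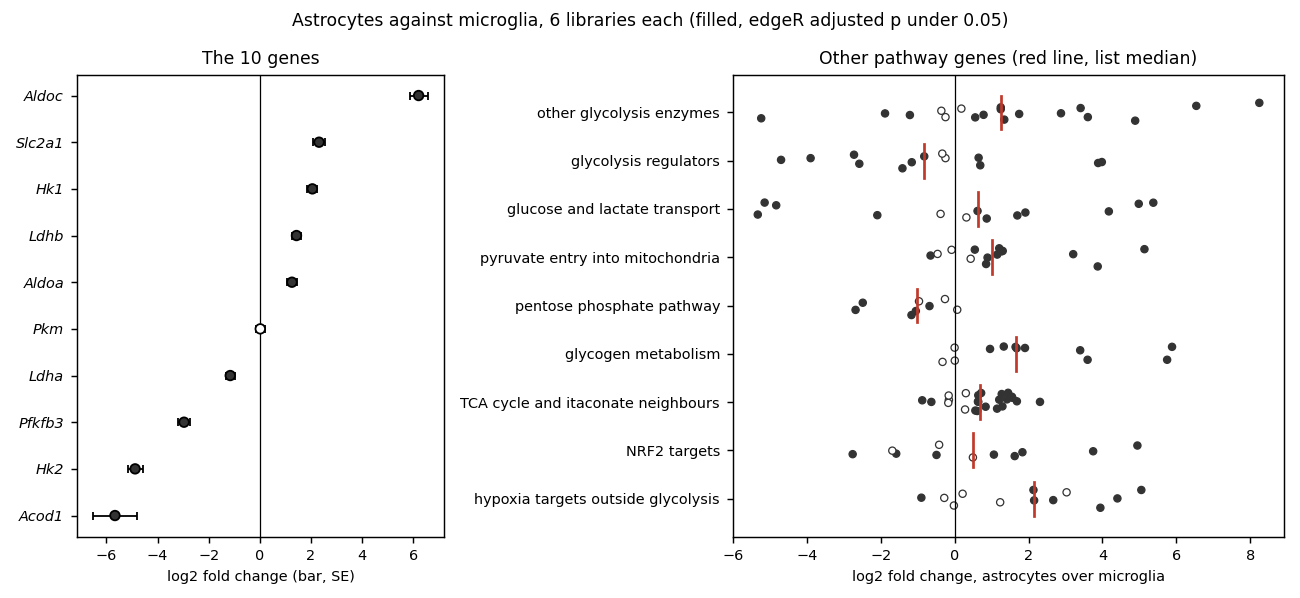
Log2 fold change of astrocytes over microglia for the 10 genes with SE bars (left) and for the other pathway genes by list with the list median as a red line (right); filled points passed edgeR's test. The 10 genes run from Acod1 at -5.67 to Aldoc at 6.21, with Pkm at 0.01.

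Within a library, the ratio of paired isozymes does not depend on how libraries are scaled. The count ratio Hk2/Hk1 was 9.97 to 23.6 in microglia and 0.06 to 0.21 in astrocytes. Aldoc/Aldoa was 6.29 to 8.60 in astrocytes and 0.12 to 0.42 in microglia. Ldhb/Ldha was 7.17 to 14.4 in astrocytes and 1.42 to 2.14 in microglia. None of the 3 ratios overlapped between cell types. The mean log2 ratios differed, as astrocytes minus microglia, by -7.04 for Hk2/Hk1, by 5.08 for Aldoc/Aldoa and by 2.55 for Ldhb/Ldha (6 against 6 libraries). Each had a 2-sided exact permutation p of 0.00216, the smallest that 6 against 6 libraries allow, and an adjusted p of 0.00649 over 9 ratio tests. Flipping signs within the 6 animals, which respects their pairing, gives the smallest p it can, 0.0312, and an adjusted p of 0.0938, for all 3 ratios.

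**Figure D3:**
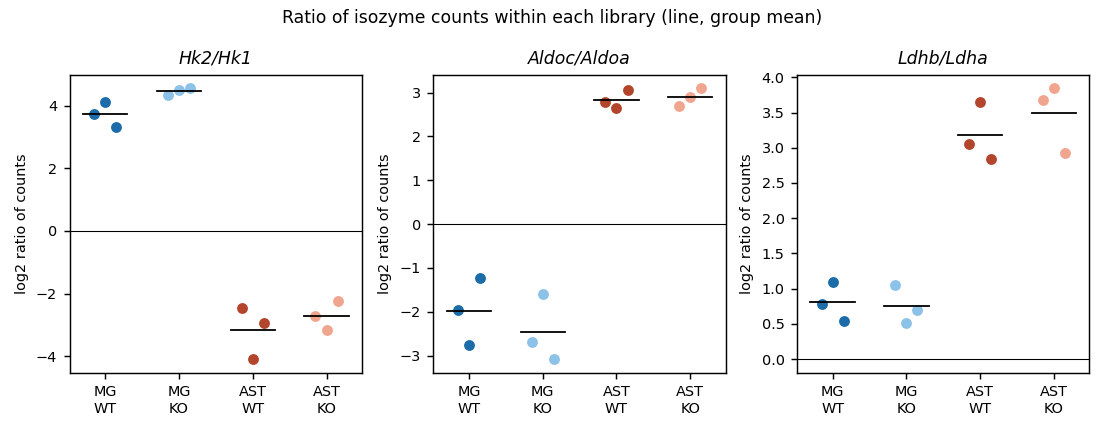
Log2 ratio of the counts of 2 isozymes within each library (0.5 counts added to each), by group; points are libraries and lines are group means. Astrocytes lie below microglia for Hk2/Hk1 and above them for Aldoc/Aldoa and Ldhb/Ldha.

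Counts grow with transcript length, so levels were compared between genes only per kilobase of merged exons (lengths from the GENCODE M21 annotation). On that scale Hk2 was 24.5 times Hk1 in microglia, and Hk1 was 5.36 times Hk2 in astrocytes. Aldoc was 8.28 times Aldoa in astrocytes, and Aldoa was 4.10 times Aldoc in microglia. Ldhb exceeded Ldha in both cell types, 3.63 times in microglia and 21.2 times in astrocytes. With the longest coding transcript as the length, the same 6 values were 13.3, 9.87, 4.05, 8.39, 2.39 and 14.0, each in the same direction.

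In microglia the order per kilobase of merged exons, in CPM per kb with the SD over 6 libraries, began with Ldhb at 132 ± 10.8, Hk2 at 94.8 ± 13.04, Pfkfb3 at 86.0 ± 22.9 and Pkm at 74.1 ± 14.8. Among the latter 3, Hk2 and Pfkfb3 lie within their spread, the SD over libraries, of each other, as do Pfkfb3 and Pkm. Hk2 and Pkm lie further apart than either SD. This spread does not test genes against each other within a library, and Hk2 exceeded Pkm in each of the 6 libraries. Aldoa at 39.4 ± 7.54 and Ldha at 36.7 ± 6.46 also lay within their spread. Slc2a1 at 18.0 ± 4.91 and Aldoc at 10.7 ± 5.995 followed, and Hk1 at 4.08 ± 1.63 and Acod1 at 3.01 ± 1.63 came last, within their spread. In astrocytes Aldoc led at 635 ± 82.7 and Ldhb followed at 287 ± 59.9. Aldoa at 76.7 ± 10.8 and Slc2a1 at 74.8 ± 19.7 lay within their spread. Pkm at 61.9 ± 12.4 was nearer to Slc2a1 than the SD of Slc2a1, but further from Aldoa than either of their SDs. Ldha at 13.5 ± 3.03 and Hk1 at 13.3 ± 1.78 lay within their spread. Pfkfb3 at 9.09 ± 2.22, Hk2 at 2.69 ± 1.06 and Acod1 at 0.0434 ± 0.0594 closed the order. With the longest coding transcript as the length, Pkm moved from place 4 to place 2 and Hk2 from place 2 to place 4 in microglia. In astrocytes Pkm and Slc2a1 changed places (5 and 4), as did Hk1 and Ldha (7 and 6), and Aldoc, Ldhb and Aldoa still led.

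Low levels in the other cell type were set beside the markers of that type. Aldoc in microglia was 1.68% of its mean level in astrocytes, where the 10 astrocyte markers were at 1.03% to 5.19% of theirs (median 1.83%). Hk2 in astrocytes was 2.83% of its microglia level, and Acod1 was 1.44%, where the 10 microglia markers were at 1.54% to 9.28% (median 1.84%). Pfkfb3 in astrocytes, at 10.6%, and Hk1 in microglia, at 30.7%, lay above every marker of the other type. By library, Aldoc in microglia was 1.76%, 0.88% and 3.33% in WT and 0.92%, 2.10% and 1.11% in KO, and the summed astrocyte markers were 2.75%, 1.70% and 3.61% in WT and 1.88%, 1.84% and 1.82% in KO. Among WT microglia both were highest in replicate 3 and lowest in replicate 2. Hk2 in astrocytes was 3.94%, 1.01% and 3.15% in WT and 2.703%, 2.27% and 3.94% in KO, beside summed microglia markers of 3.76%, 1.29% and 2.58% in WT and 2.38%, 2.16% and 2.30% in KO. Both were lowest in WT replicate 2. Whether these low levels come from the sorted cells themselves was not tested.

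**Figure D4:**
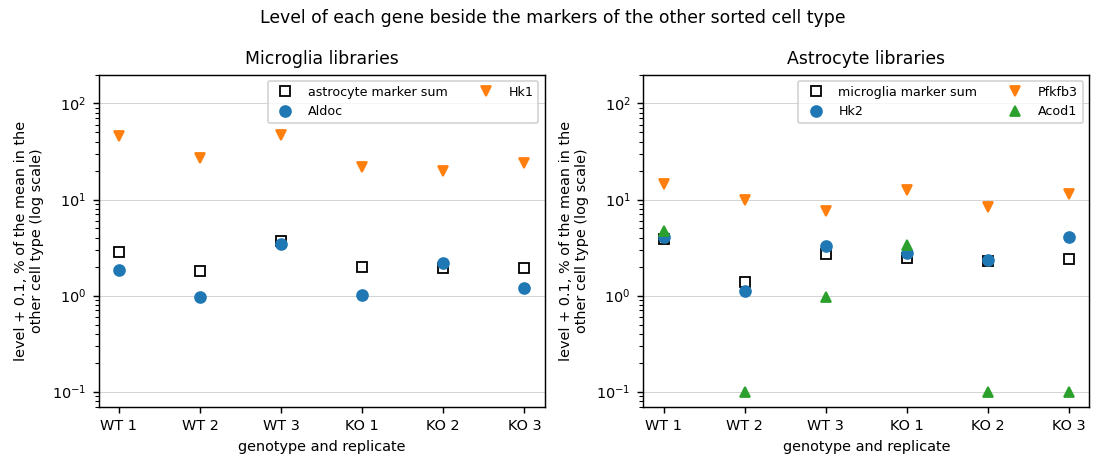
Level in each library as a percent of the mean in the other cell type (+ 0.1, log axis), for genes that are high in the other type (filled) and for the summed markers of that type (open squares). Aldoc and Hk2 lie near the squares, while Hk1 and Pfkfb3 lie above them in all 6 libraries.

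Other genes of the pathway also differed by cell type. Of 132 other genes in 9 lists (enzymes, regulators, transporters and neighbouring routes), 125 passed the filter on low counts, 70 were called higher in astrocytes and 26 higher in microglia, where edgeR called 36.4% and 28.2% of all genes (64.6% in either direction). Their median log2 fold change of astrocytes over microglia was 0.69 against 0.19 for all genes. Of 18 other glycolysis enzymes, 12 were higher in astrocytes and 3 in microglia. Among them Pfkm, a phosphofructokinase subunit, stood at 4.89 on the log2 scale. The hexokinase-like Hkdc1 had 8.84 to 18.6 CPM in astrocytes and 0 to 0.679 CPM in microglia, while Hk3, the hexokinase of myeloid cells, was at -5.24 (57.5 to 144 CPM in microglia, 0 to 5.97 CPM in astrocytes). Of 13 regulators, 4 were higher in astrocytes, Epas1 (HIF-2α) at 3.88 among them, and 7 in microglia, with Mlxipl at -4.70, Myc at -3.90 and Txnip, which curbs glucose uptake, at -2.72.

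Transport of sugar and lactate divided by gene as well. Of 13 transport genes, 7 were higher in astrocytes and 4 in microglia, where edgeR called 36.4% and 28.2% of all genes. These shares apply to each list of this paragraph and the next. The fructose transporter Slc2a5 had a log2 fold change of -5.33, Slc2a6 of -5.14 and the lactate exporter Slc16a3 (MCT4) of -4.83, each higher in microglia. Slc2a4 (GLUT4), at 7.40 to 16.3 CPM in astrocytes, had one of 4.98. In the list on pyruvate entry into mitochondria 10 of 14 genes were higher in astrocytes, with the pyruvate dehydrogenase kinases Pdk4 at 5.14 and Pdk2 at 3.87 and pyruvate carboxylase (Pcx) at 3.21, and Pdk1 at -0.65 was the 1 gene higher in microglia. Of 12 glycogen genes, 9 were higher in astrocytes and 0 in microglia, led by Ppp1r3c at 5.88 and the phosphorylase Pygm at 5.75. The pentose phosphate pathway had the reverse count, 0 of 8 higher in astrocytes and 5 in microglia, with H6pd at -2.68 and Pgd at -2.49. With WT animals only, 3 of the 8 were called, against 52.8% of all genes.

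Around itaconate, 17 of 24 citric acid cycle genes and their neighbours were higher in astrocytes and 2 in microglia, where 36.4% and 28.2% of all genes were. With KO animals only, 12 of the 24 were called in all, against 52.3% of all genes. Clybl, an enzyme of the breakdown of itaconate, stood at 2.31 on the log2 scale. Acly, which splits citrate in the cytosol, was at -0.88. Of 11 targets and partners of the factor NRF2, which itaconate is known to activate, 5 were higher in astrocytes (Slc7a11 at 4.95) and 3 in microglia (Hmox1 at -2.76). Of 12 hypoxia-responsive genes outside glycolysis, 6 were higher in astrocytes, Vegfa at 4.40 and Car9 at 5.05 among them, and P4ha1 at -0.90 was higher in microglia. Among the called genes that the naming rule picks from these lists, Minpp1, Pfkfb2, Egln3, Pdk1, Pgls, Slc25a11 and Txnrd1 lost the call in at least 1 alternative analysis.

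Between KO and WT microglia none of the 10 genes was called. Acod1 and Hk1 were lower in every KO library than in any WT library, and their unadjusted p values were small, but the adjusted ones were not. edgeR called 0 of 10 genes, as it called 0% of the 14191 genes tested. At an unadjusted edgeR p under 0.05 there were 2 of the 10, against 7.42% of all genes, and DESeq2 and limma voom also called 0 of the 10. The libraries did not overlap for 2 of the 10, against 13.1% of all genes, and KO lay lower in both of them, against 6.57%.

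Acod1 was at 11.4 ± 2.36 CPM (SD, n = 3) in WT and 4.37 ± 1.69 CPM (SD, n = 3) in KO microglia. The lowest WT library had 9.66 CPM and the highest KO library 6.27 CPM. KO over WT, its log2 fold change was -1.41 (SE 0.43, edgeR p 0.006, adjusted p 0.551). It ranged from -1.74 to -1.19 over 16 alternative analyses, with adjusted p of 0.191 to 0.999. It was -1.45 with the astrocyte marker level of each library as a covariate.

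Hk1 was at 45.1 ± 12.7 CPM (SD, n = 3) in WT and 24.6 ± 2.22 CPM (SD, n = 3) in KO microglia. The lowest WT library, replicate 2 at 30.4 CPM, was close to the highest KO library at 26.9 CPM. The log2 fold change was -0.90 (SE 0.25, edgeR p 0.00343, adjusted p 0.542). With the astrocyte marker level as a covariate it was -0.51 (adjusted p 0.959), and over 16 alternatives the adjusted p was 0.101 to 0.997. The astrocyte markers lay the same way, although their sums overlapped: all 10 had a log2 fold change below 0 (median -0.64), and they summed to 346 to 736 CPM in WT and 371 to 384 CPM in KO microglia, with none at 0 in all libraries of a group. All 9 endothelial markers were below 0 as well, with sums of 24.2 to 103 CPM in WT and 25.4 to 33.0 CPM in KO, and 7 choroid plexus and ependyma markers summed to 885 to 2212 CPM in WT and 358 to 899 CPM in KO. The part of these cells in the Hk1 and Acod1 differences was not tested. The astrocyte marker covariate was added after seeing the data. With 3 libraries per genotype and markers that lay the same way, it cannot separate genotype from these cells.

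Neutrophils and monocytes can also carry Acod1. In microglia 11 neutrophil markers summed to 2.33 to 28.9 CPM in WT and 6.36 to 13.5 CPM in KO, and 9 markers of monocytes and border macrophages summed to 173 to 380 CPM in WT and 227 to 360 CPM in KO. Both ranges overlapped between genotypes, and of the neutrophil markers 2 were at 0 in all WT and 1 in all KO microglia libraries. The part of these cells in the Acod1 level was not tested.

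The other 8 genes overlapped between KO and WT microglia. For Aldoc it was -0.54 on the log2 scale (SE 0.41), and 0.45 with the astrocyte marker covariate. Pkm was at -0.34 (SE 0.21) and Hk2 at -0.11 (SE 0.20). Ldha at 0.13, Slc2a1 and Pfkfb3 at 0.12 each, Ldhb at 0.08 and Aldoa at 0.04 had SEs of 0.18 to 0.27. Their edgeR adjusted p values were 0.759 to 0.978. The Hk2/Hk1 count ratio was 13.4, 17.3 and 9.97 in WT and 20.5, 22.8 and 23.6 in KO microglia. All 3 KO values were above all 3 WT values (difference of log2 ratios 0.75, 2-sided exact permutation p 0.1, the smallest that 3 against 3 allow, adjusted p 0.225 over 9 tests). The ratio uses the Hk1 counts described above, so it is not a result apart from that of Hk1.

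**Figure D5:**
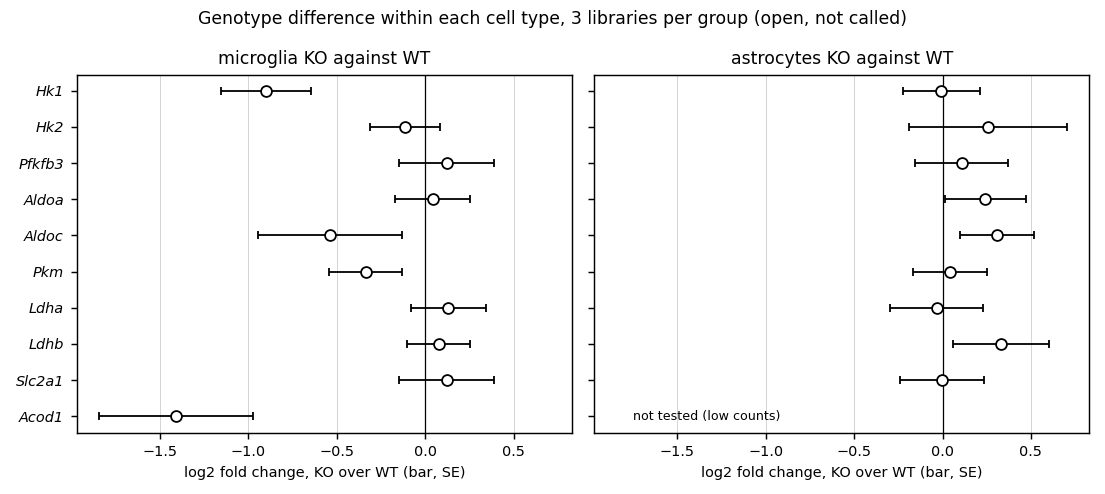
Log2 fold change of KO over WT with SE bars for the 10 genes in microglia (left) and astrocytes (right), 3 libraries per group. Acod1 at -1.41 and Hk1 at -0.90 stand lowest in microglia; no gene passed the test in either cell type, and Acod1 was not tested in astrocytes.

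In the other pathway lists 0 of 117 genes tested were called between KO and WT microglia, and 10 had an unadjusted edgeR p under 0.05, where 7.42% of all genes had. The 3 with the smallest p were Epas1 (log2 -1.34, SE 0.32, adjusted p 0.439), the lysosomal glucosidase Gaa (-0.70, SE 0.21, adjusted p 0.542) and the neuron-enriched enolase Eno2 (-2.06, SE 0.69, adjusted p 0.587). Epas1 was at 20.6 to 54.0 CPM in WT and 14.4 to 17.1 CPM in KO microglia. DESeq2 called it (adjusted p 0.0371), as did edgeR without a filter on low counts (adjusted p 0.00165), and with the astrocyte marker covariate its log2 fold change was -0.64. All 9 endothelial markers were also below 0 in KO microglia (median log2 fold change -1.44). They summed to 24.2 to 103 CPM in WT and 25.4 to 33.0 CPM in KO microglia. The part of endothelial cells in the Epas1 difference was not tested. In astrocytes, where it was at 266 to 364 CPM, Epas1 was 14.7-fold higher than in microglia.

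Between KO and WT astrocytes none of the genes was called or separated. Acod1, with at most 5 counts in a library, did not pass the low-count filter. edgeR called 0 of the other 9 genes, as it called 0% of the 15755 genes tested, and 0 of 9 had libraries that did not overlap, against 8.13% of all genes (5.74% with KO lower). At an unadjusted edgeR p under 0.05 there were 0 of the 9, against 2.37%. DESeq2 and limma voom also called 0 of the 9. On the log2 scale, KO over WT was 0.33 (SE 0.27) for Ldhb, 0.31 (SE 0.21) for Aldoc, 0.26 (SE 0.45) for Hk2 and 0.24 (SE 0.23) for Aldoa. Those of Pfkfb3, Pkm, Slc2a1, Hk1 and Ldha lay between -0.03 and 0.11. Each edgeR adjusted p was 0.999. With 3 libraries per genotype, a p above the threshold does not show that the levels are the same. In the other pathway lists 0 of 122 genes were called and 4 had an unadjusted p under 0.05, where 2.37% of all genes had, the smallest in Gclm (log2 0.65), Nfe2l2 (0.56) and Pdhb (0.57), with adjusted p of 0.999 each.

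The genotype difference was then compared between the cell types in 1 edgeR fit. The interaction was called for 0 of the 10 genes and for 0% of the 17294 genes tested. Hk1 had the smallest p among the 10, with a difference of KO effects (astrocytes minus microglia) of 1.01 on the log2 scale (SE 0.37, p 0.0159, adjusted p 0.679). Without KO replicate 2 it was 0.60. Aldoc was at 0.97 (SE 0.57, adjusted p 0.866), Pkm at 0.49 (SE 0.34) and Acod1, with its few astrocyte counts, at 0.80 (SE 1.81), where the median over all genes was 0.16. At an unadjusted p under 0.05 there was 1 of the 10, against 6.37% of all genes.

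As a description of likeness, log2 CPM was correlated over the 6 libraries of a cell type, which share their sort and their depth. The genes nearest to Acod1 in microglia were Ntsr2 (Pearson r 0.994), Galnt2 and Lratd2 (0.992 each), Galnt10 (0.988) and Plcd3 (0.988) among 12420 genes. Ntsr2 and Plcd3 were scarce, at 0.194 to 7.24 and 0 to 2.04 CPM. Of the other 9 genes Hk1 was nearest to Acod1 (r 0.82), then Pkm (r 0.75). The 6 libraries hold both genotypes, and Acod1 and Hk1 were both lower in every KO library, so their r in part repeats that split. The genes nearest to Aldoc in astrocytes were Tmem141 (r 0.996), Znrf2 (0.991), Ing1 (0.9902), Mt3 (0.9901), a brain metallothionein, and Lrrc57 (0.9895) among 13667 genes. With 6 libraries and this many genes, such values describe these libraries only.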

How the data were processed

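RNA of 12 libraries of sorted microglia and astrocytes was examined, 3 per cell type and genotype. Per the file headers, the authors deposited RSEM estimated counts per gene symbol, in 2 tables, one per cell type. Per the submitters' processing notes, STAR 2.7.10b, RSEM 1.3.3, limma and the build GRCm39 were used. Full-length cDNA amplification without molecular identifiers was used, per the labels' protocols, so counts hold amplified copies and intervals cover counting error only. The counts are not normalized; they were rounded to whole numbers (in a library, 3.44% to 5.27% of nonzero values departed from a whole number by over 0.001). CPM used the library totals, 10.3 M to 15.6 M.

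The main test was edgeR 4.0.16 (R 4.3.3), quasi-likelihood, with TMM factors, filterByExpr (minimum count 10) and Benjamini-Hochberg adjustment over all genes; the threshold for a call was an adjusted p of 0.05. Genotype was tested within each cell type (6 libraries), and cell type and interaction over all 12. Isozyme ratios had exact permutation tests. Fits were tested on simulated data. The members and the lists were chosen with earlier results of these data known. The rule names all 10 genes and Kpna4; per list the 3 called genes with the largest log2 fold change in each direction between cell types, from which examples were printed; the 3 pathway genes with the smallest p per genotype comparison where none was called; and the 5 genes most alike to Acod1 and Aldoc.

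Animal numbers in the labels pair each microglia library with an astrocyte library; deviations of such pairs from their groups had correlations, across genes, of 0.03, 0.15 and 0.19 in WT and 0.12, -0.0001 and 0.18 in KO animals. Alternatives were DESeq2 1.42.0, its size factors, library totals, removal of 8 abundant non-coding RNAs, other filters, limma 3.58.1 (voom), blocks, all 12 libraries in 1 fit, 1 genotype only and each replicate left out. The covariate of the other sorted type's marker level was added after seeing the data. Promoter and exon-length tables were on GRCm38, so gene coordinates of the counts' build are not printed.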

Additional observations from a re-analysis of the deposited data

How the results depend on the processing

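The 9 cell type calls among the 10 genes held in all 16 alternatives. Genotype calls among the 10 numbered 0 in every alternative of both cell types and of the interaction, while counts over all genes, 0 in each main analysis, were 41, 4 and 54 with DESeq2 (microglia, astrocytes, interaction) and 121, 17 and 160 without a low-count filter. List counts between cell types moved from 5 to 3 in the pentose phosphate pathway with WT animals only, and from 19 to 12 around the citric acid cycle with KO animals only. The share of all genes called fell from 64.6% to 52.8% with WT animals only and to 52.3% with KO animals only. Over all genes, microglia calls were 41 with all 12 libraries in 1 fit and 2 without KO replicate 2; in astrocytes 1 without WT replicate 1; in the interaction 1 without WT replicate 2 and 6 without KO replicate 3. Between cell types 11166 genes were called, 6289 higher in astrocytes and 4877 in microglia, and with library totals 5520 and 5809.

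With the replicate block, numbers shared by WT and KO animals gave 30 calls over all genes in microglia and 0 among the 10 genes; same-numbered animals are not pairs by the labels (correlations of 0.095, 0.07 and 0.31 in microglia and -0.01, 0.08 and 0.40 in astrocytes). With the animal as the replicate block, 10400 genes and the same 9 members were called between cell types. Sign flips within animals left the ratio differences at 2.55 (Ldhb/Ldha), 5.08 (Aldoc/Aldoa) and -7.04 (Hk2/Hk1) with an adjusted p above the threshold, because 6 animals cannot give a p under 0.0312.

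In 65 cases a value that its main test did not call changed sign. The log2 fold changes of KO over WT in astrocytes were as follows. Hk1 (-0.0074) was 0.0084 with DESeq2, 0.0088 with its size factors, 0.0005 with 12 libraries and 0.0036 with the marker covariate, and -0.22 to 0.10 over the replicates left out. Slc2a1 (-0.0050) was 0.0030 with DESeq2, 0.0029 with its size factors, 0.10 with limma voom, 0.015 with the replicate block and 0.0033 with the covariate, and -0.21 to 0.14 over the replicates left out. Ldha (-0.03) was 0 with the replicate block and 0.019 with the covariate, and -0.20 to 0.23 over the replicates left out. Pkm (0.04) was -0.079 with library totals and -0.13 to 0.15 over the replicates left out, Hk2 -0.12 to 0.66 and Pfkfb3 -0.11 to 0.40. In microglia, 12 libraries in 1 fit gave Aldoa -0.049 and Ldhb -0.018, and the covariate gave Aldoc 0.45 and Pfkfb3 -0.052; replicates left out gave Hk2 -0.21 to 0.034, Pfkfb3 -0.11 to 0.37, Aldoa -0.17 to 0.18, Aldoc -0.97 to 0.025 and Slc2a1 -0.11 to 0.36. For the interaction, Pfkfb3 was -0.064 without the abundant RNAs, -0.13 with library totals and -0.063 without a filter, and Slc2a1 0.17 with limma voom and 0.0059 with the replicate block; replicates left out gave Hk2 -0.026 to 0.66, Pfkfb3 -0.28 to 0.10, Aldoa -0.11 to 0.48, Ldha -0.30 to 0.12, Ldhb -0.13 to 0.45, Slc2a1 -0.50 to 0.15 and Acod1 -2.83 to 2.33. Between cell types Pkm was -0.056 without the abundant RNAs, -0.25 with library totals, -0.22 in WT animals only and -0.21 to 0.083 over the animals left out, and Kpna4 was 0.20 in KO animals only and -0.51 without KO replicate 3, where edgeR called it (adjusted p 0.0313). Of the genotype differences of log2 ratios, replicates left out gave Ldhb/Ldha in microglia -0.21 to 0.087, Aldoc/Aldoa in astrocytes -0.035 to 0.18 and Hk2/Hk1 in astrocytes -0.0041 to 0.81. The cause of these changes was not tested.

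With 3 animals per genotype the precision is limited by the number of animals, and Acod1 in astrocytes, at 0 to 5 counts, by depth.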
